A study of Mus musculus with 18 samples.

Results

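Homeostatic microglia genes were followed in RNAseq data of dorsal spinal tissue. The 8 genes were chosen by name, as genes that resting microglia of the central nervous system are known to express: P2ry12, P2ry13, Tmem119, Siglech, Sall1, Gpr34, Csf1r and Olfml3. A row with the gene's name was found for 6 of the 8 in all 3 deposited tables, among 34579 loci per table. No row carries the name or a RefSeq identifier of P2ry13 or Gpr34, and these were not analysed further. The tissue came from lumbar segments L3–5 of C57BL/6N mice aged 3 months that had received rAAV into the spinal cord. All mice thus carried a virus. The rAAV encoded LacZ (β-galactosidase, the control), HDAC4 wt, the wild-type histone deacetylase, or HDAC4 3SA, a mutant kept in the nucleus by changes in its phosphorylation sites. Each mouse received either CFA (complete Freund's adjuvant, which inflames the hindpaw) or saline into the paw 24 h before collection. The 6 groups, LacZ saline, LacZ CFA, HDAC4 wt saline, HDAC4 wt CFA, HDAC4 3SA saline and HDAC4 3SA CFA, held 3 mice each. The promoter that drives these transgenes and the share of cells that took up the virus are not given in the sources used here.

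Microglia are the resident macrophages of the spinal cord. In the resting state they survey the tissue with motile processes, and they depend on signals through the receptor encoded by Csf1r and on TGF-β for survival and identity. The homeostatic genes are known to be expressed at lower levels when microglia become activated, whereas genes shared with other macrophages, such as those for complement C1q or lysosomal proteases, are kept or expressed more strongly. P2ry12 and P2ry13 encode receptors for ADP that guide the processes towards damage, and Gpr34 encodes a receptor for lysophosphatidylserine. Siglech encodes a protein of the Siglec family of lectins that is also found on plasmacytoid dendritic cells. Tmem119 encodes a membrane protein used as a marker of microglia, and Olfml3 a secreted protein of the olfactomedin family. Sall1 encodes a zinc finger factor that maintains microglial identity. Csf1r, the receptor for CSF1 and IL-34, is also expressed by other macrophages and by monocytes.

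The sequences before the starts of P2ry12 and Sall1 are shown because, of the pairs with P2ry12, the level of Sall1 kept the most even ratio over the groups (0.688 to 0.833, as given further on). RefSeq windows were at hand for 5 of the 8 genes. They were searched on both strands for AGGAAGT and GAGGAA, letters found in sites of ETS factors such as PU.1 (encoded by Spi1) that overlap in AGGAA, and for the MEF2 motif, since MEF2 factors are known partners of HDAC4. In the 250 bases before the start, AGGAAGT was found at P2ry12, 46 bases upstream, and at 1 of 3 starts of Sall1, 175 bases upstream, and in 7.69% of all 32851 windows. GAGGAA was found only at P2ry13 among the members, and in 23.3% of all windows. The MEF2 motif was found at none of the members' windows and in 2.92% of all. AGGAAGT is in capitals in these windows, which are chr3:59262986-59263235 for P2ry12 and chr8:89042863-89043112 for Sall1 (GRCm38.p6, both given 5′ to 3′ on the minus strand). A match of letters is a description and not a binding site.
P2ry12: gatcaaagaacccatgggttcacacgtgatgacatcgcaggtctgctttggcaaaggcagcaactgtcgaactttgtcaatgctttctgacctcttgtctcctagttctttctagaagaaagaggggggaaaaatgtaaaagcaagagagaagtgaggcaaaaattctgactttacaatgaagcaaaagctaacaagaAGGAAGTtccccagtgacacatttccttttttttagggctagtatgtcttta
Sall1: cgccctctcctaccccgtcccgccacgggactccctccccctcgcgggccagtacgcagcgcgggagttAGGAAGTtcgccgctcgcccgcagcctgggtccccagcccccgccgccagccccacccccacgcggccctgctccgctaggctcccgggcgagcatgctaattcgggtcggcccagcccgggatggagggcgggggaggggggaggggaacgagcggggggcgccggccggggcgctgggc

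The deposited tables give 1 value per gene and group, estimated by Cuffdiff over the 3 mice, in FPKM (fragment counts scaled to exon length and to the mapped fragments of the library). They hold neither values per mouse nor depths, and no error was computed here. The test columns of the tables were not used and no test was run, and every comparison describes these group values without a check against the spread between mice. Fold changes are quotients of the FPKM values. Log2 ratios had 0.1 FPKM added to both values. A log2 ratio beyond 0.5, which is 1.41-fold, was used as a mark of size and not as a test. Each vector was normalized in a run of its own, so that vector and run cannot be told apart, and levels across vectors were set side by side as a description. The median log2 ratio of 9 housekeeping genes between HDAC4 wt or HDAC4 3SA and LacZ mice lay between -0.15 and -0.03. Hdac4 itself had 7.41 and 7.72 FPKM after saline and CFA with LacZ, 10.1 and 10.8 FPKM with HDAC4 wt, and 8.86 and 8.81 FPKM with HDAC4 3SA. In bulk tissue, fewer cells of a type and less RNA per cell cannot be told apart.

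On GRCm38, P2ry12 lies on chromosome 3 from 59216272 to 59262871 on the minus strand, within Med12l, which is transcribed from the plus strand. The tables list it at a locus from 59005827 to 59344371, a span shared with 3 other genes. Csf1r lies on chromosome 18 from 61100598 to 61132149 on the plus strand, and its end overlaps Hmgxb3 on the minus strand. The libraries were strand-specific, but the strand setting of the counting is not given in the sources used here. Tmem119 (chromosome 5, 113793729 to 113800516, minus strand) and Siglech (chromosome 7, 55768178 to 55778925, plus strand) overlap no other annotated gene. The same holds for Sall1 (chromosome 8, 89027235 to 89044162, minus strand) and Olfml3 (chromosome 3, 103722222 to 103738001, minus strand). Sall1 has 3 rows in the tables, all at the same span, of which the one with the highest mean was read (9.69 FPKM over the 6 groups, against 1.88 and 1.36 FPKM in the others).

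All 6 genes were detected in every group, and their levels spanned from 0.622 to 78.1 FPKM. The growth factor receptor Csf1r was the most abundant. It had 23.1 (saline) and 23.7 FPKM (CFA) with LacZ, 62.3 and 70.5 FPKM with HDAC4 wt, and 52.9 and 78.1 FPKM with HDAC4 3SA. Its 4 values in HDAC4 mice were thus all above its values in LacZ mice, and the highest was 3.38 times the lowest. Among all loci with at least 0.5 FPKM, Csf1r stood at the 82.8th percentile in LacZ saline mice and at the 94.0th in HDAC4 wt saline mice.

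Tmem119, the membrane protein, also stood higher in all HDAC4 groups. It had 7.97 (saline) and 8.71 FPKM (CFA) with LacZ, 17.4 and 21.6 FPKM with HDAC4 wt, and 15.7 and 20.2 FPKM with HDAC4 3SA. The lectin gene Siglech had 3.81 and 3.73 FPKM with LacZ, 5.50 and 5.42 FPKM with HDAC4 wt, and 6.08 and 5.55 FPKM with HDAC4 3SA. For both genes the LacZ values were the lowest of the 6, and Siglech was slightly lower after CFA than after saline with each vector.

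P2ry12 and Sall1 varied least. P2ry12, the ADP receptor, had 11.1 (saline) and 9.30 FPKM (CFA) with LacZ, 13.9 and 14.5 FPKM with HDAC4 wt, and 13.6 and 14.3 FPKM with HDAC4 3SA. The identity factor Sall1 had 8.31 and 7.74 FPKM with LacZ, 10.1 and 11.2 FPKM with HDAC4 wt, and 9.35 and 11.5 FPKM with HDAC4 3SA. For P2ry12 the highest value was 1.56 times the lowest, and for Sall1 1.48 times. Olfml3, the secreted protein, was low in every group, at 0.918 and 0.820 FPKM with LacZ, 0.871 and 1.02 FPKM with HDAC4 wt, and 0.622 and 0.826 FPKM with HDAC4 3SA. It was the only gene whose LacZ values lay among those of the HDAC4 mice, so that 5 of the 6 genes had all 4 HDAC4 values above both LacZ values. How many of all loci have that order was not computed, so this count has no background beside it. Without an error for any value, it cannot be said which neighbours in these orders differ.

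**Figure D1:**
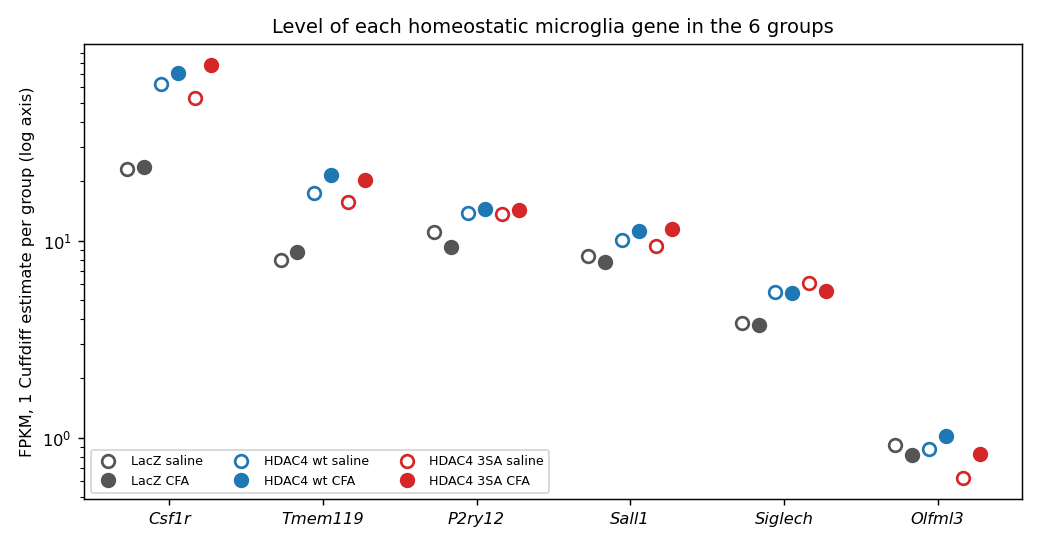
Level of the 6 homeostatic microglia genes with a row in the tables, in FPKM on a log axis, with 1 point per group (open, saline; filled, CFA; grey, LacZ; blue, HDAC4 wt; red, HDAC4 3SA). There are no error bars because each group has 1 deposited value. Csf1r and Tmem119 stand clearly higher in the HDAC4 groups, up to 78.1 and 21.6 FPKM, while Olfml3 stays between 0.622 and 1.02 FPKM.

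CFA was compared with saline within each vector, the comparison the study was designed for. In LacZ mice the 6 genes were close to their saline levels, with a median log2 ratio of -0.07 and a range from -0.25 for P2ry12 to 0.13 for Tmem119. Of the 6, 2 were higher and 4 lower after CFA, and none passed the mark of 0.5 in either direction, against 5.13% of 21430 loci that were higher and 4.37% that were lower by that much. Neutrophil genes stood out in the same LacZ comparison: 8 listed genes summed to 11.2 FPKM after saline, against 113 FPKM after CFA. Monocyte genes summed to 4.66 and 7.97 FPKM. The homeostatic genes, in contrast, lay between 0.837-fold and 1.09-fold of their saline levels.

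In HDAC4 wt mice, 5 of the 6 genes were higher after CFA, with a median log2 ratio of 0.16. The largest ratios were those of Tmem119 (1.25-fold), Olfml3 (1.17-fold) and Csf1r (1.13-fold), and Siglech was the only one that was lower (0.984-fold). None passed the mark, which 10.8% of 22055 loci passed upwards and 6.74% downwards. In HDAC4 3SA mice, 5 of the 6 were again higher, with a median log2 ratio of 0.33. Csf1r was 1.48-fold higher after CFA (log2 ratio 0.56) and was the only gene past the mark, which 11.4% of 22026 loci passed upwards and 5.92% downwards. Olfml3 was 1.33-fold, Tmem119 1.29-fold and Sall1 1.23-fold higher, P2ry12 was 1.05-fold higher and Siglech was 0.912-fold. The share of 1 in 6 is close to that of all loci. Neutrophil genes went the other way in the HDAC4 mice, summing to 41.7 (saline) and 28.8 FPKM (CFA) with HDAC4 wt and to 62.1 and 38.9 FPKM with HDAC4 3SA. The part of other blood cells in the values of the homeostatic genes was not tested.

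Taken gene by gene over the vectors, Tmem119 and Csf1r were the only genes that were higher after CFA in all 3, and Siglech was the only one that was lower in all 3. P2ry12, Sall1 and Olfml3 were lower after CFA in LacZ mice (0.837-, 0.932- and 0.893-fold) and higher in both groups of HDAC4 mice. The difference between vectors in the CFA ratio was not tested for any gene.

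The levels of HDAC4 mice were then set beside those of LacZ mice that had received the same paw injection. After saline, the median log2 ratio over LacZ was 0.42 for HDAC4 wt and 0.47 for HDAC4 3SA, and 0.72 and 0.63 over the 4 genes that averaged at least 5 FPKM. Csf1r was 2.69-fold (HDAC4 wt) and 2.28-fold (HDAC4 3SA) the LacZ level, Tmem119 2.18-fold and 1.97-fold, and Siglech 1.44-fold and 1.59-fold. P2ry12 was at 1.25-fold and 1.22-fold, Sall1 at 1.22-fold and 1.12-fold, and Olfml3 at 0.949-fold and 0.677-fold. The log2 ratio of -0.07 of Olfml3 for HDAC4 wt was smaller in size than the -0.15 of the housekeeping genes, so that its direction turns when the values are centred on those genes. Csf1r, Tmem119 and Siglech passed the mark upwards in both comparisons and no gene passed it downwards. Olfml3 for HDAC4 3SA, at a log2 ratio of -0.50, lay at the mark, and it passed downwards with 0 FPKM added or with the values centred on loci over 5 FPKM (4 genes past the mark in either direction). Siglech for HDAC4 wt, at 0.52, no longer passed under that centring or with 1 FPKM added (2 genes past the mark). Over all loci, 16.1% of 21691 passed upwards and 12.9% downwards for HDAC4 wt, and 13.3% of 21584 and 11.7% for HDAC4 3SA. Both comparisons use the same LacZ mice and are not independent of each other.

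After CFA, 5 of the 6 genes passed the mark upwards with each HDAC4 vector, all but Olfml3. With 1 FPKM added, 3 passed for HDAC4 wt and 4 for HDAC4 3SA, and with the rows of a name summed 4 passed for HDAC4 3SA. The median log2 ratio over LacZ was 0.58 for HDAC4 wt and 0.59 for HDAC4 3SA, and 0.97 and 0.91 with the minimum of 5 FPKM. Csf1r was 2.97-fold and 3.29-fold the LacZ level, and Tmem119 2.48-fold and 2.32-fold. P2ry12 was 1.56-fold and 1.54-fold, Siglech 1.45-fold and 1.49-fold, and Sall1 1.44-fold and 1.48-fold. The log2 ratios of Siglech and Sall1 lay between 0.52 and 0.56 and thus just past the mark. Of all loci, 15.6% of 21704 passed upwards and 8.53% downwards for HDAC4 wt, and 18.1% of 21748 and 13.4% for HDAC4 3SA. The differences between the tables are wide: 90% of loci had log2 ratios between -0.63 and 1.63 for HDAC4 wt and between -0.87 and 1.77 for HDAC4 3SA, and each of the 6 genes lay inside these bounds.

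**Figure D2:**
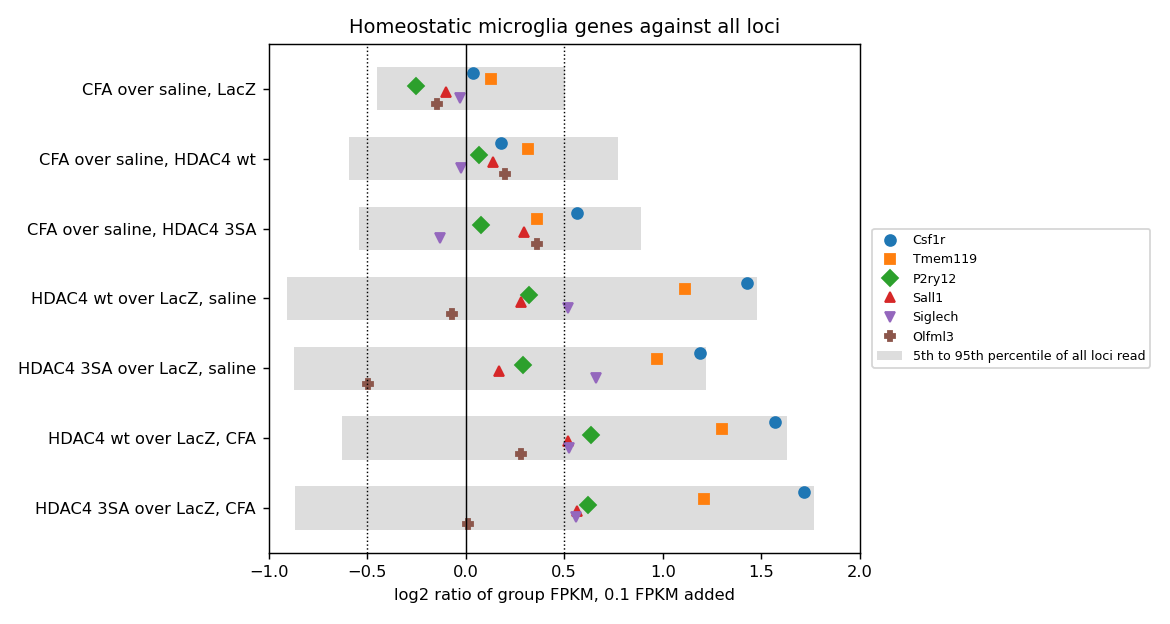
Log2 ratio of the group FPKM values, with 0.1 FPKM added, for the 6 homeostatic microglia genes (symbols) in the 7 comparisons. Grey bars span the 5th to the 95th percentile of all loci read, and dotted lines mark a log2 ratio of 0.5 in either direction. In the comparisons with LacZ, Csf1r lies furthest right (1.19 to 1.71) and Olfml3 furthest left (-0.50 to 0.28).

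Ratios between genes of the same group do not depend on how a table was scaled. Sall1 stood at 0.688 to 0.833 times the level of P2ry12 in the 6 groups, and Siglech at 0.343 to 0.447 times. Csf1r, in contrast, stood at 2.08 and 2.55 times P2ry12 with LacZ after saline and CFA, at 4.49 and 4.86 times with HDAC4 wt, and at 3.89 and 5.45 times with HDAC4 3SA. Tmem119 stood at 0.718 and 0.937 times P2ry12 in LacZ mice and at 1.16 to 1.49 times in the HDAC4 mice. The homeostatic genes therefore did not keep 1 ratio to each other over the groups: P2ry12, Sall1 and Siglech stayed near each other, and Csf1r and Tmem119 stood higher against them in HDAC4 mice with both vectors. Olfml3 stood lower, at 0.0827 and 0.0882 times P2ry12 with LacZ and at 0.0457 to 0.0700 times in the HDAC4 mice.

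The 6 genes were set against a list of 14 genes that microglia share with other macrophages, all of which were read in the tables. Ctss, a lysosomal protease, had 58.0 (saline) and 65.7 FPKM (CFA) with LacZ, 520 and 686 FPKM with HDAC4 wt, and 365 and 719 FPKM with HDAC4 3SA. C1qa, a chain of complement C1q, had 37.5 and 49.9 FPKM with LacZ, 360 and 486 FPKM with HDAC4 wt, and 254 and 500 FPKM with HDAC4 3SA. After saline, all 14 passed the mark upwards over LacZ with both HDAC4 vectors, with a median log2 ratio of 2.93 for HDAC4 wt and 2.53 for HDAC4 3SA, beside the 0.42 and 0.47 of the homeostatic genes. After CFA within a vector, 2 of the 14 passed the mark with LacZ, 1 with HDAC4 wt and all 14 in HDAC4 3SA mice (medians 0.34, 0.34 and 0.98).

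The geometric mean of the 6 homeostatic genes was 6.25 FPKM in LacZ saline mice and 9.48 and 8.58 FPKM in HDAC4 wt and HDAC4 3SA saline mice. That of the 14 shared genes was 8.07 FPKM in LacZ saline mice and 57.2 and 43.2 FPKM in the others. The quotient of these means was 0.775 after saline and 0.580 after CFA with LacZ, 0.166 and 0.145 with HDAC4 wt, and 0.199 and 0.121 with HDAC4 3SA. Relative to the shared genes, the homeostatic genes were thus lower after CFA than after saline with each vector, and lower in all HDAC4 groups than in both LacZ groups. Taken singly, each of the 6 genes had both LacZ quotients above all 4 HDAC4 quotients, Csf1r included (2.87 and 2.30 in LacZ mice, 0.919 to 1.22 in HDAC4 mice). This quotient was chosen after the values had been seen. Its denominator, the mean of the shared genes, was higher after CFA with each vector. That mean was also higher in all HDAC4 groups than in both LacZ groups. A gene with the same level in all 6 groups would therefore show the same order of quotients. How many of all loci show this order was not computed. A drop particular to the homeostatic genes can thus not be read from these quotients.

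**Figure D3:**
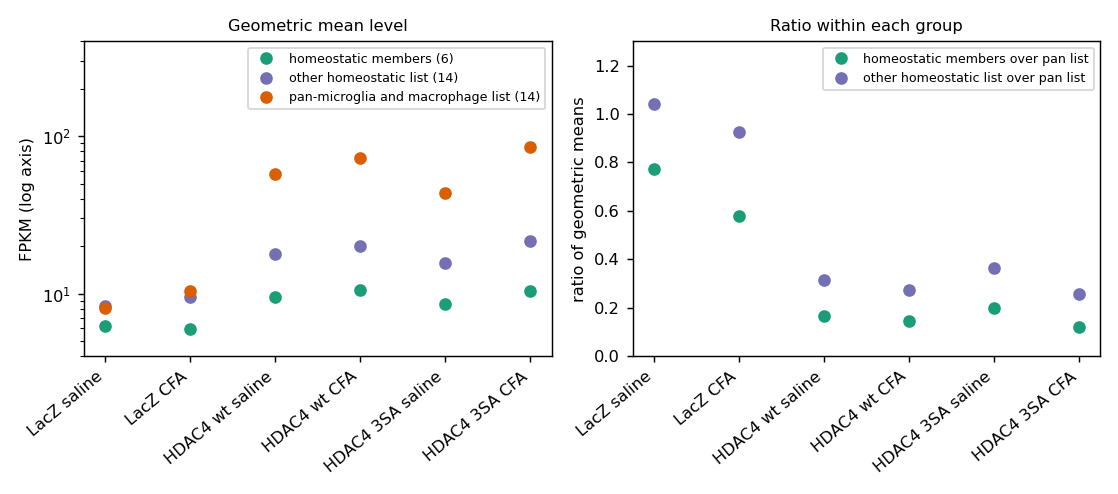
Left, geometric mean level in FPKM (log axis) of the 6 homeostatic genes, of 14 other homeostatic genes and of 14 genes shared with other macrophages, with 1 point per group. Right, quotient of each homeostatic mean and the shared mean within each group: the 6 genes lie at 0.775 and 0.580 in LacZ mice and between 0.121 and 0.199 in HDAC4 mice.

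A further list of 14 genes linked to homeostatic microglia lay between these. After saline, 10 of 14 passed the mark upwards over LacZ in HDAC4 wt mice and 9 of 13 read in HDAC4 3SA mice, with medians of 1.12 and 0.95. Cst3, an inhibitor of cysteine proteases, had 774 FPKM in LacZ, 1016 FPKM in HDAC4 wt and 978 FPKM in HDAC4 3SA saline mice. Bin1, an adaptor of membrane curvature, had 102, 100.3 and 102 FPKM in the same order, and the adhesion receptor Adgrg1 had 33.7, 33.6 and 34.4 FPKM. Cst3, Bin1 and Adgrg1 are also expressed by other cells of the spinal cord. After CFA, 2 of the 14 passed the mark upwards with LacZ, 0 with HDAC4 wt and 8 in HDAC4 3SA mice (medians 0.11, 0.22 and 0.61).

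Both ligands of the Csf1r product were read. Csf1 had 10.8 (saline) and 11.7 FPKM (CFA) with LacZ, 21.8 and 26.6 FPKM with HDAC4 wt, and 19.0 and 29.2 FPKM with HDAC4 3SA. Il34, the other ligand, had 12.3 and 14.7 FPKM, 14.4 and 12.6 FPKM, and 13.1 and 11.1 FPKM in the same order. Csf1 thus stood higher in HDAC4 than in LacZ mice, as Csf1r did, and Il34 stayed within 11.1 to 14.7 FPKM. Of the 7 ligands and signalling genes of this receptor, 5 passed the mark upwards over LacZ after saline with each HDAC4 vector. Inpp5d, a lipid phosphatase of blood cells and microglia, was among them (1.90, 8.81 and 7.24 FPKM), and the widely expressed adaptor Grb2 was not (54.1, 53.8 and 53.4 FPKM). After CFA, 1, 0 and 5 of the 7 passed it upwards in LacZ, HDAC4 wt and HDAC4 3SA mice.

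Of 9 transcription factors known from microglia, 7 passed the mark upwards over LacZ after saline with each HDAC4 vector, with medians of 1.85 and 1.46. Spi1, which encodes PU.1, the factor that specifies macrophages, had 2.45 (saline) and 4.29 FPKM (CFA) with LacZ, 15.8 and 20.3 FPKM with HDAC4 wt, and 11.6 and 22.4 FPKM with HDAC4 3SA. Irf8, its partner in microglia, had 1.70 and 2.30 FPKM, 13.5 and 17.3 FPKM, and 9.85 and 19.0 FPKM. Both stood higher in all HDAC4 groups, as Sall1 did with a smaller spread of 1.48-fold between its lowest and highest group. Of the MEF2 genes, Mef2c had 5.01 FPKM in LacZ, 9.06 FPKM in HDAC4 wt and 7.99 FPKM in HDAC4 3SA saline mice, and Mef2a had 28.9, 34.1 and 31.6 FPKM. Neurons also express both MEF2 genes. After CFA, 1 of 8 factors read passed the mark upwards with LacZ, 0 of 9 with HDAC4 wt and 6 of 9 in HDAC4 3SA mice.

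In the TGF-β pathway, 5 of 11 genes in HDAC4 wt mice and 4 of 11 in HDAC4 3SA mice passed the mark upwards over LacZ after saline, with medians of 0.29 and 0.28. The receptor gene Tgfbr1 had 7.05, 18.9 and 15.5 FPKM in LacZ, HDAC4 wt and HDAC4 3SA saline mice, and Tgfbr2 had 7.34, 17.1 and 14.9 FPKM. The integrin genes Itgb8 (20.8, 22.0 and 22.6 FPKM) and Itgav (17.2, 19.5 and 19.8 FPKM), whose products release active TGF-β, were nearer to each other. After CFA, 0, 0 and 4 of the 11 passed the mark upwards in LacZ, HDAC4 wt and HDAC4 3SA mice.

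Of the genes that act on extracellular purines, the signals read by P2ry12, 6 of 10 read passed the mark upwards over LacZ after saline for HDAC4 wt and 5 of 9 for HDAC4 3SA, with medians of 0.90 and 0.73. Entpd1 and P2ry6 are also in the list of other homeostatic genes. The ATP-gated channel genes P2rx4 and P2rx7 had 5.79 and 4.47 FPKM in LacZ, 12.3 and 9.93 FPKM in HDAC4 wt, and 9.71 and 8.97 FPKM in HDAC4 3SA saline mice. Adora1, an adenosine receptor gene of neurons, had 44.2, 43.4 and 45.8 FPKM, and P2ry1, another ADP receptor gene, had 7.10, 6.18 and 5.48 FPKM. After CFA, 2 of 10, 0 of 11 and 4 of 11 passed it upwards in LacZ, HDAC4 wt and HDAC4 3SA mice.

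Markers of other cells that the tissue could hold also differed between the tables. The summed level of 6 monocyte genes with a row, among 7 listed, was 4.66 FPKM in LacZ, 60.8 FPKM in HDAC4 wt and 39.3 FPKM in HDAC4 3SA saline mice. That of 8 neutrophil genes was 11.2, 41.7 and 62.1 FPKM, and that of 9 genes of border-associated macrophages was 10.5, 36.8 and 25.2 FPKM. Of these, 6 of 9 read passed the mark upwards over LacZ for HDAC4 wt and 3 of 8 for HDAC4 3SA, and 0 downwards. Ms4a7 made up much of the sum in HDAC4 mice (0.515, 19.4 and 11.3 FPKM), and Stab1 had 2.08, 5.25 and 3.76 FPKM. Lyve1 went the other way, with 0.598, 0.432 and 0.399 FPKM. For 5 of 6 genes of plasmacytoid dendritic cells, which also express Siglech, the summed level was 4.81, 78.8 and 58.6 FPKM, of which most was Bst2 and Irf7, both also induced by interferon. Of these 5 genes, the 4 with enough signal to be read passed the mark upwards with each HDAC4 vector, Ly6d with 0.174, 4.81 and 3.39 FPKM and Cox6a2 with 0.250, 2.57 and 1.95 FPKM. Ly6d and Cox6a2 were read only through their HDAC4 levels, so that their passing upwards was fixed by the minimum level. The remaining one, Ccr9, was at most 0.273 FPKM in any group. The 8 neuronal genes summed to 2107, 1499 and 1610 FPKM. After CFA, in the same order, monocyte genes summed to 7.97, 63.4 and 54.7 FPKM, those of border-associated macrophages to 13.2, 44.4 and 45.5 FPKM, those of plasmacytoid dendritic cells to 8.98, 113 and 121 FPKM, and the neuronal genes to 2026, 1384 and 1337 FPKM. Of the 9 genes of border-associated macrophages, 3 passed the mark upwards over LacZ after CFA with each HDAC4 vector. In that comparison, 3 of the 9 were below LacZ with HDAC4 wt and 2 with HDAC4 3SA. Most of the monocyte sum in HDAC4 mice was Ly6c2 (0.172, 48.2 and 28.0 FPKM after saline). Ly6c2 has a close copy in Ly6c1 and is uncertain for that reason. Also after saline, Vcan had 3.40, 5.90 and 5.84 FPKM and Plac8 had 0.290, 4.14 and 2.95 FPKM. Ccr2, the chemokine receptor of inflammatory monocytes, had 0.400, 1.33 and 0.948 FPKM. No listed marker with a row was at 0 in any group. The part of these cells in the levels of Csf1r, which monocytes and macrophages also express, and of the other homeostatic genes was not tested.

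**Figure D4:**
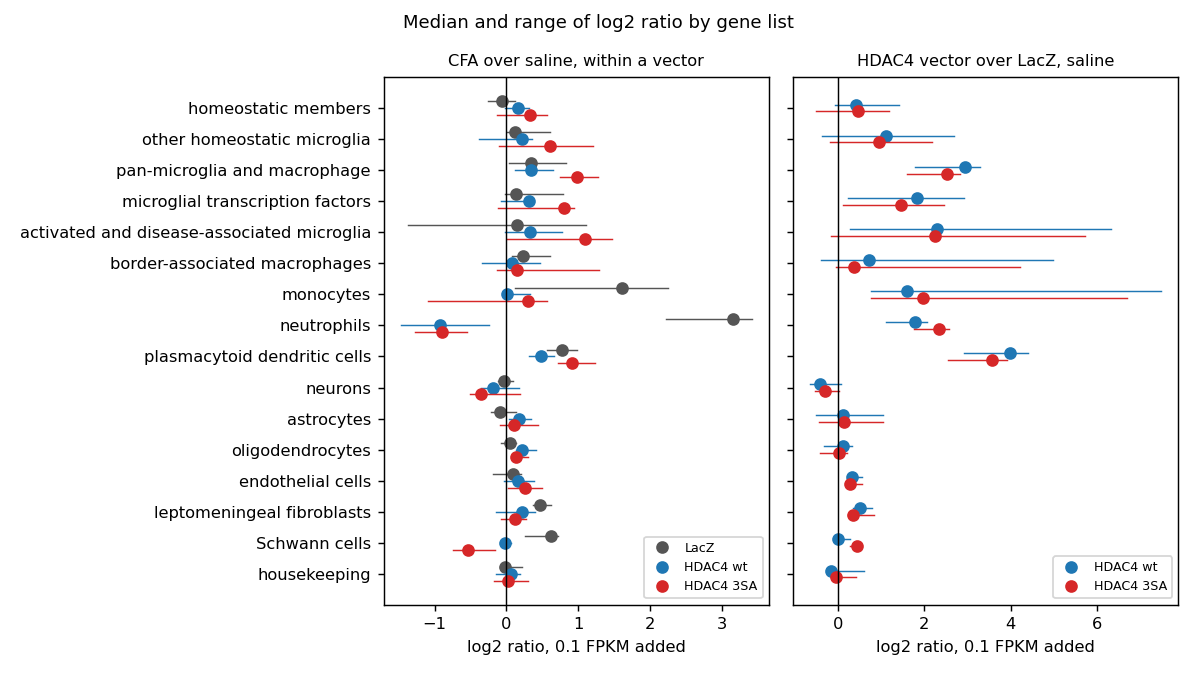
Median (points) and range (lines) of the log2 ratio, with 0.1 FPKM added, over the genes of each list named on the left with a mean of at least 0.5 FPKM. Left, CFA over saline within LacZ (grey), HDAC4 wt (blue) and HDAC4 3SA (red) mice; right, each HDAC4 vector over LacZ after saline. The homeostatic members lie at 0.42 and 0.47 on the right, the shared microglia and macrophage genes at 2.93 and 2.53.

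Finally, the genes with the most similar profile were looked up among 16233 loci of a single gene with a mean of at least 1 FPKM. Likeness was measured as the root mean square difference between log2 levels over the 6 groups, each centred on its own mean, from the median profile of the 6 homeostatic genes. This median profile was lowest in LacZ CFA mice (-0.41) and highest in HDAC4 wt CFA mice (0.23). The 10 nearest were Dusp18, Psmc3ip, Ccnl1, BC064078, Nampt, Egflam, Morc3, Gm15852, Maml2 and Gpr179, with differences from 0.018 to 0.045. None of them is in the microglial lists used here. Of the 6 genes themselves, P2ry12 lay nearest to the median profile (0.047), followed by Siglech (0.091) and Sall1 (0.092). Csf1r lay furthest from it (0.47), beyond the median of all candidates (0.29), as did Tmem119 and Olfml3 (0.32 each). With 6 group values, many genes come close to any profile.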

How the data were processed

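The samples were dorsal spinal cord RNA of 18 mice in 6 groups by vector and paw injection, grouped by the labels. Per the study's methods, poly(A) libraries were sequenced as single-end reads of 50 bp, mapped with TopHat and Bowtie to GRCm38 with Ensembl release 85, and quantified with Cufflinks and Cuffdiff. The deposited FPKM values are the authors' Cuffdiff estimates, 1 per group, in 1 table per vector. The tables give no depth per library, no counts and no values per mouse, and how precise a value is remains unknown. The tables' own fold changes, test statistics, p-values and q-values were not used. The design foresaw limma if values per mouse were found, and they were not.

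Genes were matched by name, taking the row with the highest mean over the 6 groups. Loci without a successful Cuffdiff estimate in any table (19) were left out, and so were 386 loci at different places between tables from comparisons between vectors and from the gene lists. Loci and list genes were read where both groups of a comparison averaged 0.5 FPKM or more. A gene below this level in LacZ mice was read against them only through a higher HDAC4 level. Its passing upwards was then nearly fixed in advance, in every list. Log2 ratios were computed in Python 3.11.15 with pandas 2.3.3, with 0.1 FPKM added. Ratios planted without noise in the LacZ saline values were recovered, which checks the arithmetic only. The background counts all loci read. The members and the 18 other lists (158 genes, 150 with a row) were chosen with earlier results of these data known. List genes named are the members of highest mean, with Csf1, Il34, Spi1, Irf8, Mef2a and Mef2c. Ccr9 and Lyve1 were named after their values were seen. The values of 1 further list gene are not reported here. Gene positions are from GENCODE M21 and windows before starts from RefSeq (GRCm38.p6). Alternatives varied the FPKM added, the minimum level, the mark, the centring and the rows and members read.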

Additional observations from a re-analysis of the deposited data

How the results depend on the processing

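Of 63 medians recomputed under alternatives, 55 stayed within 0.1 of the reported log2 value, 8 moved further, and 0 of those past the mark changed sign. Of 70 counts of genes past the mark, 62 stayed within 1.5 times. With 1 FPKM added, the median of CFA over saline in HDAC4 3SA mice was 0.22, and 3 genes in place of 5 passed the mark for HDAC4 wt over LacZ after CFA. With a minimum of 5 FPKM, which left 4 genes, the median over LacZ was 0.72 (HDAC4 wt) and 0.63 (HDAC4 3SA) after saline, and 0.97 and 0.91 after CFA. With a mark of 1, 0 genes passed for CFA over saline in HDAC4 3SA mice, 1 for HDAC4 3SA over LacZ after saline, and 2 for each HDAC4 vector over LacZ after CFA. The share of all loci past a mark of 1 was not computed. The remaining alternatives were added after seeing the data. Centred on the housekeeping genes, the median of HDAC4 wt over LacZ was 0.57 after saline and 0.71 after CFA. Without Olfml3, the median of HDAC4 3SA over LacZ after saline was 0.66. Without P2ry12 and Csf1r, whose loci overlap a gene on the other strand, 0 genes passed in HDAC4 3SA mice after CFA, and 3 passed for each HDAC4 vector over LacZ after CFA. No paired analysis was possible because the tables hold 1 value per group, and for the same reason leaving out each mouse was not run.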

Other observations

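Genes known from activated and disease-associated microglia, the counterpart of the homeostatic state, stood further from LacZ than the homeostatic genes did. After saline, 11 of 12 genes read, among 14 listed, were past the mark upwards over LacZ with each HDAC4 vector, with medians of 2.30 and 2.25. Some of them were below 0.5 FPKM in LacZ saline mice and were read only through their HDAC4 levels. For these, passing upwards was fixed by the minimum level. The most abundant of the list were Ctsb, a lysosomal protease, with 198 FPKM in LacZ, 392 FPKM in HDAC4 wt and 342 FPKM in HDAC4 3SA saline mice, and the tetraspanin gene Cd9 with 102, 251 and 233 FPKM. Cd68, a lysosomal protein of macrophages, had 5.37 (saline) and 5.99 FPKM (CFA) with LacZ, 62.7 and 83.9 FPKM with HDAC4 wt, and 43.4 and 108 FPKM with HDAC4 3SA. Spp1 (osteopontin) had 39.9 and 47.6 FPKM, 144 and 206 FPKM, and 121 and 330 FPKM in the same order. After CFA, 1 of 10 passed the mark upwards and 1 downwards in LacZ mice, 2 of 12 upwards in HDAC4 wt mice and 10 of 12 in HDAC4 3SA mice. Apoe, a further member, had no usable estimate in at least 1 table and was left out.

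The lists of other glial, vascular and meningeal genes had saline medians nearer to LacZ than the activated genes did. Among astrocyte genes, Gfap, an intermediate filament gene expressed more in reactive astrocytes, had 389 FPKM in LacZ, 807 FPKM in HDAC4 wt and 805 FPKM in HDAC4 3SA saline mice, and Aqp4, a water channel gene, had 129, 196 and 181 FPKM. The glutamate transporter gene Slc1a2 had 191, 159 and 173 FPKM, and Gja1, a gap junction gene, had 119, 102 and 103 FPKM. Over LacZ after saline, the median log2 ratio of astrocyte genes was 0.14 with HDAC4 wt and 0.15 with HDAC4 3SA. The median of endothelial genes was 0.33 and 0.29, and that of leptomeningeal fibroblast genes 0.51 and 0.36, beside 0.42 and 0.47 for the homeostatic genes. Schwann cell genes had medians of 0.02 and 0.45, and oligodendrocyte genes of 0.12 and 0.02. Over LacZ after CFA, Schwann cell genes had medians of -0.67 with HDAC4 wt and -0.80 with HDAC4 3SA. With each vector 4 of 5 then passed the mark downwards, against 8.53% and 13.4% of all loci.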
